A study of Mus musculus with 18 samples.

Results

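The subject is the first hour of the response of wild-type dendritic cells to bacterial lipopolysaccharide (LPS), the outer membrane component of Gram-negative bacteria. The comparison set the 3 arrays of wild-type cells after 1 h of LPS against the 3 arrays of unstimulated wild-type cells, which is 6 of the 18 arrays of the series. The series crossed 2 genotypes, wild type (labelled UBC9WT) and knockout for Ubc9, the enzyme that attaches the small protein SUMO to other proteins, with no stimulation, 1 h of LPS and 6 h of LPS, with 3 arrays in each of the 6 groups. The submitters describe the 3 arrays of a group as biological replicates, and the labels do not say whether they came from separate mice. Cells of all groups, the unstimulated wild-type controls included, came from mouse bone marrow cultured over 10 days with GM-CSF (20 ng/ml), a growth factor of myeloid cells, in medium holding 10% bovine serum, and all received 100 nM 4-hydroxytamoxifen on day 6. LPS was given at 10 ng/ml. The labels name no Cre transgene, allele, strain or age, so the wild-type cells are described here only as cells labelled wild type that had met the drug. Total RNA was measured on Affymetrix Mouse Gene ST 1.0 arrays, and the values are log2 signals, in which a difference of 1 is a 2-fold change.

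LPS is sensed at the cell surface by the receptor Tlr4 with its partners Ly96 (MD-2) and Cd14. The adaptors Myd88 and Ticam1 then lead to the kinases that free NF-kB transcription factors from their inhibitors and to MAP kinases, and the first mRNAs to accumulate include cytokines, chemokines and the pathway's own inhibitors. A later wave of interferon-inducible antiviral genes follows secreted interferon beta. Cultures grown in GM-CSF are a common model of inflammatory dendritic cells and hold macrophage-like cells as well.

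After 1 h of LPS, wild-type cells had higher mRNA levels of neutrophil-attracting chemokines (Cxcl1, Cxcl2, Cxcl3), of the cytokines Tnf, Il1a, Il1b, Il6 and Osm and of inhibitors and feedback regulators of NF-kB. Fewer genes fell, and each called fall of a named gene was under 1 log2 unit. Of 19938 genes measured, 51 were called higher, a background share of 0.256%, and 9 were called lower (0.0451%), where called means an adjusted p under 0.05 in limma (Benjamini-Hochberg over all genes). The rises ran from 0.46 to 4.72 log2 units, 38 of them reached 2-fold and 14 reached 4-fold, whereas the falls ran from −0.47 to −0.85. The median over all genes was 0.01. The shares of 0.256% and 0.0451% are the background for the counts of each gene list below. All 3 of the 1 h arrays lay above all 3 unstimulated arrays for each of the 51 genes and below them for each of the 9, which describes the genes and adds no support, since the same arrays chose them. Over all genes the 1 h arrays all lay above for 5.8% and all below for 5.3%. An unadjusted p under 0.05 was reached by 1147 genes.

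The count of calls moved with the fit. A replicate block within genotype, which takes arrays with the same number as a set, called 97 genes higher (0.487%) and 36 lower (0.181%), the 60 above among them. Genes described as called with the block were not called without it in the fit to all 18 arrays. Their errors are standard errors of the fit without the block, also where the p-value beside them is that of the block. Of the 66 such genes with a standard symbol, 24 were also called in at least 1 of the other alternatives without a block, and 43 were not called when the block was fitted to only the 6 arrays compared. Without array 2 at 1 h, 28 genes were called higher, and without array 3 at 1 h 25 higher and 3 lower, whereas without unstimulated array 1 the genes called lower numbered 28. With only the 6 arrays compared in the fit, 30 were called higher and 1 lower. Of the 60 genes, 27 were called in each of the 6 fits that leave out 1 of these arrays, and 21 also in the other 11 alternatives: Cxcl2, Il1b, Nfkbiz, Tnf, Cxcl1, Tnfsf9, Tnfaip3, Il1a, Ccrl2, Ptgs2, Nfkbia, Zc3h12c, Gadd45a, Zc3h12a, Osm, Flrt3, Junb, Ets2, Pde4b and Ier3 among the rises, and Rsrp1 among the falls.

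**Figure D1:**
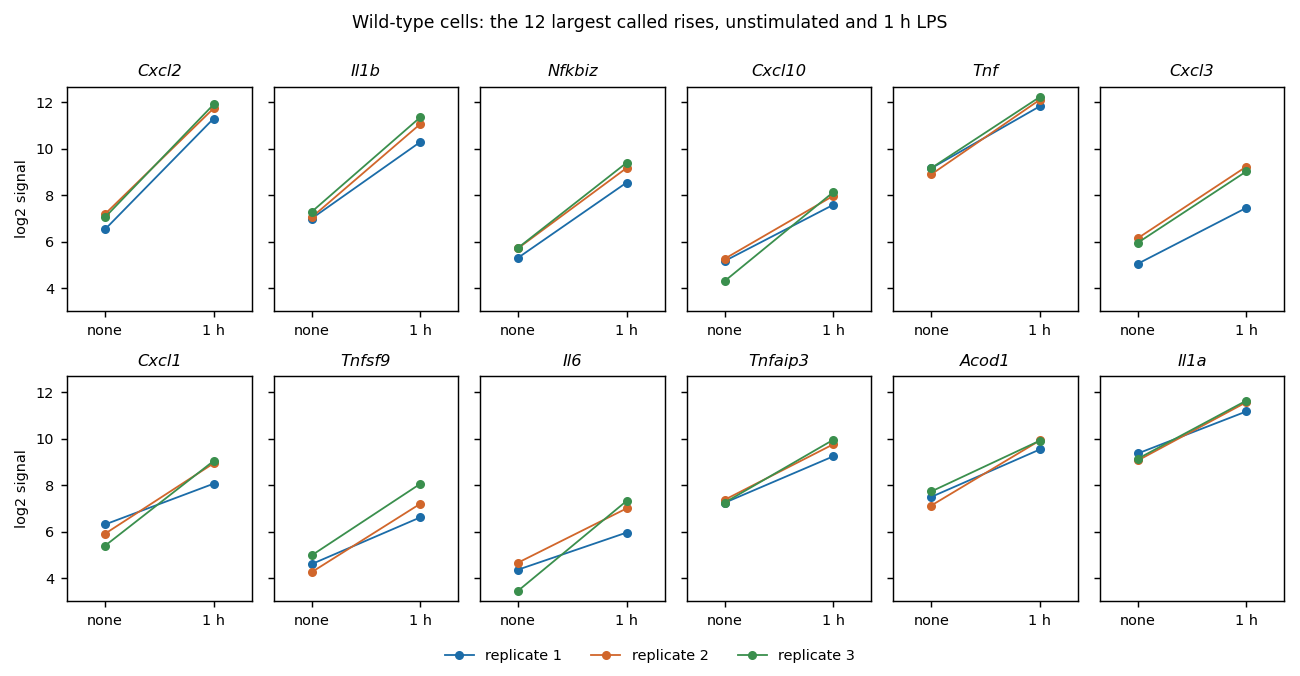
Log2 signal of the 12 largest called rises in wild-type cells, each panel 1 gene, with unstimulated cells on the left, cells after 1 h of LPS on the right and lines joining arrays with the same replicate number. Every line rises, and the steepest panel is Cxcl2, from 6.54 to 7.20 up to 11.31 to 11.91.

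The cells were first set against their label. Array means of the list of 16 conventional dendritic cell markers lay between 7.66 and 8.0 on the unstimulated arrays and between 7.73 and 7.92 at 1 h. The integrin Itgax (CD11c), 1 of these markers, stood at 11.04, 11.09 and 11.10 unstimulated, and the MHC class II gene H2-Ab1 at 11.70, 11.57 and 11.42. Zbtb46, a transcription factor of conventional dendritic cells, stood at 5.29, 5.14 and 5.0, closer to the array means of 20 germline genes that serve as a low-signal reference (3.66 to 3.74). Macrophage markers were bright too, with Adgre1, the classical marker of tissue macrophages, at 10.43, 9.87 and 10.21 and Csf1r, the receptor for the growth factor M-CSF, at 10.21, 10.62 and 10.77 on the same arrays, so these arrays hold the signal of both kinds of marker. Because probes differ in brightness, these levels do not rank genes against each other.

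The ranges of the array means of each marker list overlapped between the groups. Between arrays with the same number, the means of 3 of the 9 lists moved one way in all 3 replicates: plasmacytoid markers by −0.07, −0.07 and −0.01 log2 units, T and NK cell markers by 0.05, 0.15 and 0.10 and stromal markers by 0.01, 0.07 and 0.15. Their part in the results was not tested. The 12 macrophage and monocyte markers had array means of 8.14 to 8.60 unstimulated and 8.14 to 8.60 at 1 h, and the 13 neutrophil and granule markers 5.61 to 5.83 and 5.61 to 5.96. S100a8 stood at 11.52, 12.21 and 11.19 unstimulated and 11.73, 11.37 and 11.33 at 1 h, whereas Ly6g, which defines neutrophils, had a mean of 2.91 unstimulated. Plasmacytoid markers had means of 5.55 to 5.66 and 5.54 to 5.60, stromal markers 5.38 to 5.58 and 5.45 to 5.66, and B cell, T and NK cell, mast cell and basophil and erythroid markers 3.84 to 4.83 and 3.94 to 4.71. Of the 88 marker genes measured over the 9 lists, limma called 0 with or without the replicate block, and 0 reached an unadjusted p under 0.05. In a bulk sample, fewer cells of a type and less RNA per cell cannot be told apart.

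Of the 6 genes in the list built around Tlr4, none was called. Tlr4 stood at 10.23, 10.48 and 10.04 unstimulated and at 10.39, 10.34 and 10.21 after 1 h, and its co-receptor Ly96 at 8.30, 7.04 and 8.57 and 8.50, 8.30 and 8.80. The groups overlapped for both genes. Cd14, which hands LPS to the receptor, went from 8.89, 8.95 and 9.51 to 9.55, 10.09 and 10.52, a difference of 0.94 ± 0.25 log2 units (SE, n = 3 per group). All 3 of its 1 h arrays were above all unstimulated arrays, and it was called with the replicate block and not without it (limma adjusted p = 0.000299, against 0.274 without it). Differences were 0.30 ± 0.59 for Ly86, −0.06 ± 0.37 for Cd180 and −0.01 ± 0.15 for Lbp, none called. Tlr2, the receptor for bacterial lipoproteins, rose by 0.46 ± 0.09, the smallest of the called rises, and lost its call in each leave-one-out fit except the one without unstimulated array 1 (largest adjusted p = 0.166).

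Of 23 measured Toll-like receptor adaptors and kinases, 1 rose and 0 fell, with a list median of 0.07. It was Map3k8 (Tpl2), the kinase that connects the NF-kB inhibitor complex to the ERK pathway, at 7.63, 8.10 and 7.87 unstimulated and 8.59, 8.74 and 8.74 at 1 h. The groups lay apart, with a change of 0.82 ± 0.11 log2 units (limma adjusted p = 0.00149).

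NF-kB genes were read as inhibitors and subunits. Of 16 inhibitors and feedback regulators, 6 rose, 0 fell and 10 were not called, against 0.256% of all genes called higher, and the list median was 0.41. Of 4 measured subunits 1 rose, Rel, which encodes c-Rel. Nfkbiz encodes an atypical protein of the NF-kB inhibitor family that acts in the nucleus at genes such as Il6. It stood at 5.32, 5.73 and 5.75 on the unstimulated arrays and at 8.55, 9.18 and 9.41 at 1 h. The lowest 1 h array was 2.81 log2 units above the highest unstimulated array, and the rise of 3.45 ± 0.23 is 10.9-fold (limma adjusted p = 5.53e-07). Tnfaip3 (A20), the ubiquitin-editing enzyme that shuts off signalling to NF-kB, went from 7.24, 7.37 and 7.24 to 9.23, 9.75 and 9.95. Its unstimulated arrays spanned 0.13 log2 units, and it rose by 2.36 ± 0.21 (adjusted p = 1.27e-05).

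Nfkbia, the classical inhibitor IkB alpha, stood at 9.0, 9.53 and 8.65 unstimulated and 10.60, 10.93 and 10.97 at 1 h and rose by 1.77 ± 0.17 (limma adjusted p = 4.59e-05). Unstimulated arrays spanned 0.88 log2 units, and all 1 h arrays were above them. Nfkbid, which encodes another nuclear protein of the inhibitor family, went from 6.05, 6.81 and 6.40 to 7.34, 8.09 and 8.35. The rise was 1.51 ± 0.22, and the groups did not overlap. A pair of smaller rises lost their call when single arrays were left out. Nfkbie (IkB epsilon) went from 7.77, 8.17 and 7.44 to 8.59, 9.03 and 8.92 (1.05 ± 0.21). Bcl3, a nuclear protein of the inhibitor family that pairs with NF-kB dimers, went from 8.02, 8.46 and 7.82 to 8.88, 9.43 and 9.35 (1.12 ± 0.23). Both lost their call without unstimulated array 1 or 3 or without 1 h array 2 or 3, with a largest adjusted p of 0.272 and 0.307, while the differences stayed at 0.88 to 1.24 and 0.98 to 1.30 log2 units over the 6 leave-one-out fits. Rel went from 9.30, 9.09 and 8.87 to 9.93, 9.86 and 9.96, with 1 h arrays that spanned 0.10, and rose by 0.83 ± 0.12 (limma adjusted p = 0.00453). The subunits Relb (0.37 ± 0.15), Nfkb2 (0.33 ± 0.14) and Rela (0.13 ± 0.10), named with their values known, were not called.

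Promoters of the called genes were searched for the letters that NF-kB dimers are known to bind. Windows from 250 bases before to 50 bases after each annotated start (RefSeq, build GRCm38.p6) were searched on both strands for the NF-kB motif of 10 bases. A match was present in 21 of 59 windows of genes called higher (35.6%), in 0 of 6 windows of genes called lower and in 8.46% of all 32851 windows. These windows belonged to 41 of the 50 called rises with a standard symbol and 5 of the 7 such falls, and 20 of the 41 genes had a match. The share of all genes with a match was not counted, so 20 of 41 has no background and is not comparable with 8.46%. Genes called higher also had more windows each (59 over 41 genes) than all genes with a window (32851 over 27025). The AP-1 motif TGANTCA was in 10.2% of the windows of rises, 16.7% of those of falls and 7.81% of all windows. A TATA box (TATAAA) was in 20.3%, 16.7% and 13.6% of them, and a CArG box, the site of serum response factor, in 0.0%, 0.0% and 1.63%. A match is a description of letters and not a bound site, and windows of genes with several starts were all counted. Some genes with a large rise had no match in this window, Tnf among them, which says only that these letters are not there.

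The windows printed here are those of the genes with a single window and the smallest adjusted p, 6 rises with a match and 1 rise and 1 fall without, each 5′ to 3′ on the gene's strand, with NF-kB matches in capitals. Cxcl2 lies at chr5:90903649-90903948 (plus strand), Cxcl1 at chr5:90890995-90891294 (plus) and Cxcl3 at chr5:90785851-90786150 (plus). The capitals are the same letters in these 3 neighbouring chemokine genes and begin 97, 71 and 73 bases before the start. Nfkbia lies at chr12:55492598-55492897 (minus), with a match 29 bases before the start, Rel at chr11:23770920-23771219 (minus, 92 bases before) and Ier3 at chr17:35821463-35821762 (plus, 92 bases before). Tnf at chr17:35201958-35202257 (minus) and Rsrp1 at chr4:134923375-134923674 (plus) had no match.
Cxcl2: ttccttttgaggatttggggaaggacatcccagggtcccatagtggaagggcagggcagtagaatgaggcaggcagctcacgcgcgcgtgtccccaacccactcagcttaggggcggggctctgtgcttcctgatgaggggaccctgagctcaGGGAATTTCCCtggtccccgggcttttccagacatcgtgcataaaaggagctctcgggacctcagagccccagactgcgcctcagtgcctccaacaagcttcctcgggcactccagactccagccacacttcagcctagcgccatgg
Cxcl1: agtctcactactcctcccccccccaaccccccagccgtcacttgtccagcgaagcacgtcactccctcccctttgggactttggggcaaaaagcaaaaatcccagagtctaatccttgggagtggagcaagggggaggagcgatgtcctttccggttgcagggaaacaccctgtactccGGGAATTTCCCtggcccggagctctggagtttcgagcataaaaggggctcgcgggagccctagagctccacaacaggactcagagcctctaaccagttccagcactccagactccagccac
Cxcl3: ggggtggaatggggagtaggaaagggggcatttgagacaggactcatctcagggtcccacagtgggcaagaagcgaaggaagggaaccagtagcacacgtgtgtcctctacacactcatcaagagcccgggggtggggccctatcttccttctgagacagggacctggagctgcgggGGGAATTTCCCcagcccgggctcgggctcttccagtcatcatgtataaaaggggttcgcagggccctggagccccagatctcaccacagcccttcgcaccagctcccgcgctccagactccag
Nfkbia: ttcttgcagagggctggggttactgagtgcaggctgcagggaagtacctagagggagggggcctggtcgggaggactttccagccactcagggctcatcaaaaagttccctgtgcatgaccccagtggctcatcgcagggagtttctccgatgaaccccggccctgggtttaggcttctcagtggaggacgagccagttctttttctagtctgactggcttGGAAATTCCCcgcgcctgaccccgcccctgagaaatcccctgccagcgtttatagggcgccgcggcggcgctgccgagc
Rel: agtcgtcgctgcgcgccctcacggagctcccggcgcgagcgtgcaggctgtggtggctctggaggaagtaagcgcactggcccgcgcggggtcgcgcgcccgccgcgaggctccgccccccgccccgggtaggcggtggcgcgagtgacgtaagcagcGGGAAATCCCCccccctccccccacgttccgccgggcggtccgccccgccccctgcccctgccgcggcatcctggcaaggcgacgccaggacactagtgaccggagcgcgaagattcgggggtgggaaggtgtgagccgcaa
Ier3: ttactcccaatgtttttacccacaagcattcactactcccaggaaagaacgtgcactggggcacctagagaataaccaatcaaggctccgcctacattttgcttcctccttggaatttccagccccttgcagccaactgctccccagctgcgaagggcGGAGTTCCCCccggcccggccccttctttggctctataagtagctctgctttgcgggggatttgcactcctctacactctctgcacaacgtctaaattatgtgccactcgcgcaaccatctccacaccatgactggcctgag
Tnf: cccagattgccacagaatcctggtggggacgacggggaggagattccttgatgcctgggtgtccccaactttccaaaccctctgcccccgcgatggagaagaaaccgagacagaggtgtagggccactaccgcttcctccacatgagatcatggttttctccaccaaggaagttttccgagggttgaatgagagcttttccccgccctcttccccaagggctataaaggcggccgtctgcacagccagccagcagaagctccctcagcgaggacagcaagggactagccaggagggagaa
Rsrp1: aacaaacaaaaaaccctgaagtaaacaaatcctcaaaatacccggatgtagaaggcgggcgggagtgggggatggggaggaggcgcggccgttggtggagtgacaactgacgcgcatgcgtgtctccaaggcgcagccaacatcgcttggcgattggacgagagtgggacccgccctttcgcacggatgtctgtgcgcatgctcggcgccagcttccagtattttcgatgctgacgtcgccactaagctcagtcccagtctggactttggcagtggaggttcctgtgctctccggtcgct

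Chemokines held the largest rise of all. Of 24 measured chemokines, 4 rose and 0 fell, against 0.256% of all genes called higher, and the list median was 0.21. Cxcl2, which draws neutrophils through the receptor Cxcr2, stood at 6.54, 7.20 and 7.06 unstimulated and at 11.31, 11.74 and 11.91 at 1 h. The groups were 4.11 log2 units apart, and the rise of 4.72 ± 0.30 is 26.4-fold (limma adjusted p = 5.53e-07). Cxcl1, with the same receptor, went from 6.30, 5.90 and 5.39 to 8.06, 8.93 and 9.04, a rise of 2.81 ± 0.34 (adjusted p = 0.00049). Its same-number differences spread from 1.75 in replicate 1 to 3.65 in replicate 3. Cxcl3, the third of these neighbours, went from 5.06, 6.16 and 5.96 to 7.47, 9.24 and 9.03 and rose by 2.85 ± 0.47 (adjusted p = 0.0099). Replicate 1 was the lowest in both groups for Cxcl3, and with the replicate block its adjusted p was 3.57e-06. Without the block, its call was lost without unstimulated array 1 or without 1 h array 2 or 3 (largest limma adjusted p = 0.0825). It was also lost with only the 6 arrays compared in the fit (0.0909).

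Cxcl10, a chemokine of interferon responses that attracts T cells, stood at 5.18, 5.27 and 4.31 unstimulated and at 7.60, 7.98 and 8.14 at 1 h. The groups lay apart, with a rise of 2.98 ± 0.58 (limma adjusted p = 0.0396), but the call was lost in each of the 6 leave-one-out fits (largest adjusted p = 0.234). With the replicate block its adjusted p was 0.00281, and with only the 6 arrays compared in the fit 0.00296. Cxcl10 was not called with another variance prior (0.133), after quantile normalization (0.0518) or with every probe set tested on its own (0.0735). The number of chemokines called was 2 without unstimulated array 1 or without 1 h array 2 or 3. Ccl4, a chemokine that attracts monocytes, was called with the replicate block and not without it (0.65 ± 0.28 without it, block adjusted p = 0.0138) and its groups overlapped. Ccl3, named with its values known, stood at 12.02, 12.63 and 12.07 and 12.47, 12.57 and 12.53, with overlapping groups and a difference of 0.28 ± 0.12 that was not called.

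Inflammatory cytokines rose in 5 of 25 measured genes and fell in 0, against 0.256% of all genes called higher, with a list median of 0.20. Il1b, the precursor of secreted interleukin 1 beta, went from 7.0, 7.05 and 7.29 to 10.29, 11.07 and 11.36. The unstimulated arrays spanned 0.29 and the groups were 3.01 log2 units apart, a rise of 3.79 ± 0.35, or 13.8-fold (limma adjusted p = 2.06e-05). Tnf, the cytokine of early inflammation, stood at 9.17, 8.90 and 9.17 unstimulated and reached 11.83, 12.11 and 12.23. That is a rise of 2.98 ± 0.21, or 7.89-fold (adjusted p = 1.2e-06), and the groups were 2.66 log2 units apart. Il1a, which signals through the same receptor as Il1b, went from 9.36, 9.06 and 9.13 to 11.17, 11.56 and 11.63, a rise of 2.27 ± 0.17 (adjusted p = 1.37e-06).

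Il6, the cytokine of the acute phase response, stood at 4.36, 4.66 and 3.45 unstimulated, close to the low-signal reference, and at 5.96, 7.0 and 7.32 at 1 h. Its groups lay apart and it rose by 2.60 ± 0.50 (limma adjusted p = 0.0368), with the largest spread between same-number differences of the called genes, 1.60, 2.33 and 3.87 in replicates 1, 2 and 3. The call held only without 1 h array 1 among the leave-one-out fits (largest adjusted p elsewhere 0.259). Osm, a cytokine of the Il6 family, stood at 6.18, 6.16 and 6.18 unstimulated, the tightest of the called genes, and at 7.07, 7.79 and 7.76 at 1 h. It rose by 1.36 ± 0.21 (adjusted p = 0.00456). Il12b, the shared subunit of interleukins 12 and 23, went from 5.46, 6.45 and 5.90 to 6.50, 7.07 and 7.04 (0.94 ± 0.37), with all 1 h arrays above the unstimulated ones, and was not called with or without the block. Lif, of the Il6 family too, was called with the block (0.87 ± 0.19, block adjusted p = 0.0193).

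Of 18 ligands and receptors of the TNF superfamily, 1 rose. Tnfsf9 (4-1BB ligand), which co-stimulates T cells, went from 4.60, 4.25 and 4.97 to 6.61, 7.19 and 8.05, a rise of 2.68 ± 0.34 log2 units (limma adjusted p = 0.000773). The 1 h arrays were all above the unstimulated ones and spanned 1.44. Tnfsf15 was called with the block (1.29 ± 0.28, block adjusted p = 0.000264). Of 15 chemokine and chemoattractant receptors, 1 rose as well: Ccrl2, an atypical receptor that binds chemerin, went from 6.95, 6.61 and 7.14 to 8.77, 8.94 and 9.34 (2.11 ± 0.23, adjusted p = 0.000173). The groups did not overlap. C5ar1, the receptor of complement fragment C5a, was called with the block (0.66 ± 0.49 without it, block adjusted p = 0.0128) and its groups overlapped.

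Of 22 measured genes of prostaglandin, nitric oxide and tissue mediators, 2 rose and 0 fell. Ptgs2 (cyclooxygenase 2), the inducible enzyme of prostaglandin synthesis, went from 6.40, 6.17 and 6.49 to 8.32, 8.35 and 8.60. Unstimulated arrays spanned 0.32 and 1 h arrays 0.28, and it rose by 2.07 ± 0.30 (limma adjusted p = 0.00287). Acod1 (Irg1), which makes itaconate, went from 7.49, 7.12 and 7.72 to 9.53, 9.92 and 9.91 and rose by 2.34 ± 0.41 (adjusted p = 0.0162). Its groups lay apart, but the call was lost without unstimulated array 2 or without 1 h array 2 or 3 (largest adjusted p = 0.112), which leaves 1 called gene in the list. Other genes of the list were called with the block, the clotting initiator F3 (1.05 ± 0.24) and Serpinb2, an inhibitor of plasminogen activators (1.47 ± 0.44).

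**Figure D2:**
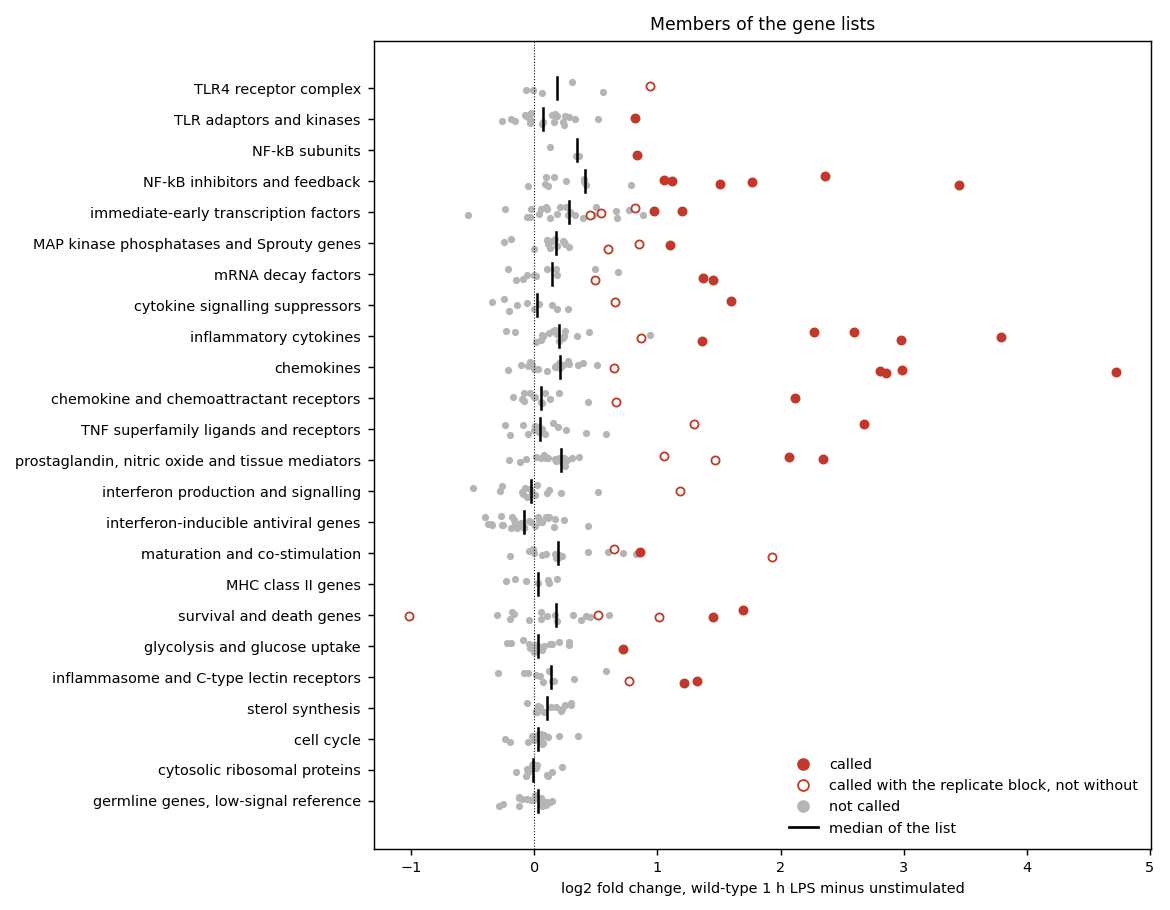
Log2 difference between 1 h of LPS and unstimulated wild-type cells for the members of 24 gene lists, each dot 1 gene, with red dots for called genes, open red dots for genes called with the replicate block and not without it, grey dots for the rest and a bar at the list median. Called members stand far to the right in the cytokine, chemokine and NF-kB inhibitor lists while every list median lies between −0.09 and 0.41.

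Of 28 measured immediate-early genes, most of them transcription factors, 2 rose, 5 with the replicate block, and the list median was 0.28. An unadjusted p under 0.05 with a higher value at 1 h was reached by 12 of the 28. Over all 19938 genes, 1147 reached it in either direction. The number with a higher value alone was not counted, so 12 of 28 has no matching background. Junb, a partner in AP-1 dimers, went from 7.41, 7.62 and 7.49 to 8.62, 8.63 and 8.85, a rise of 1.20 ± 0.10 (limma adjusted p = 5.9e-06). Ier3, an early gene that limits cell death, went from 9.18, 8.90 and 8.81 to 9.92, 9.82 and 10.07 (0.97 ± 0.12, adjusted p = 0.000632). The groups of both genes lay apart. Fosl2 (0.45 ± 0.11), Maff (0.82 ± 0.23) and Nr4a2 (0.54 ± 0.21) were called with the block. Other members, named with their values known, were not called: Egr1 went from 6.67, 5.97 and 6.13 to 6.92, 6.90 and 7.25 (0.77 ± 0.21), Fos from 6.77, 6.84 and 6.75 to 7.08, 7.03 and 7.43 (0.39 ± 0.13), and Atf3 stood at 11.01, 10.40 and 11.45 and 10.96, 10.93 and 11.09. The 1 h arrays of Egr1 and Fos were all above the unstimulated arrays, whereas those of Atf3 lay within their range.

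Genes that end a response were among the rises too. The phosphatase Dusp1, which switches off p38 and JNK MAP kinases, went from 9.10, 9.0 and 9.02 to 9.75, 10.24 and 10.45 (1.10 ± 0.19, limma adjusted p = 0.0158) and was 1 of 16 MAP kinase phosphatases and Sprouty genes called. Unstimulated arrays spanned 0.10 and lay below all 1 h arrays. Without unstimulated array 2 or 3 or 1 h array 2 or 3 it was not called (largest adjusted p = 0.145) and the list had 0 calls, and without unstimulated array 1 it had 2. Dusp4 and Dusp16 were called with the block (0.85 ± 0.29 and 0.60 ± 0.19), with overlapping groups.

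Against 0.256% of all genes called higher, 2 of 14 mRNA decay factors rose, both RNases of the Regnase family that cut inflammatory mRNAs. Zc3h12a (Regnase 1) went from 6.32, 6.39 and 6.36 to 7.58, 7.70 and 7.91, a rise of 1.37 ± 0.11 (limma adjusted p = 2.8e-06), and Zc3h12c (Regnase 3) from 8.39, 7.86 and 8.62 to 9.59, 9.77 and 9.86, a rise of 1.45 ± 0.17 (adjusted p = 0.000259). The groups of both lay apart. Zfp36 (tristetraprolin), which marks AU-rich mRNAs for decay, was called with the block (0.49 ± 0.16, block adjusted p = 0.0396). Among 12 suppressors of cytokine signalling, Socs3, the inhibitor of Il6 receptor signalling, went from 7.26, 7.94 and 6.95 to 8.73, 9.03 and 9.17 and rose by 1.59 ± 0.22 (adjusted p = 0.00226). Its groups lay apart. Cish was called with the block (0.65 ± 0.13).

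Of 20 survival and death genes, the stress genes Gadd45a and Gadd45b rose. Gadd45a went from 8.05, 7.57 and 7.89 to 9.27, 9.23 and 9.35 (1.45 ± 0.15, limma adjusted p = 4.92e-05), and its 1 h arrays spanned 0.12. Gadd45b went from 8.54, 6.75 and 7.84 to 9.20, 9.27 and 9.74 (1.70 ± 0.34, adjusted p = 0.049). Unstimulated array 1 of Gadd45b was the brightest of its group, the same-number differences were 0.67, 2.52 and 1.90, and the call held only without unstimulated array 1 (largest adjusted p elsewhere 0.309), which leaves Gadd45a alone called. The third member, Gadd45g, went the other way, from 8.91, 8.28 and 8.64 to 7.89, 7.37 and 7.52. All 3 of its 1 h arrays were below the unstimulated ones, and the difference of −1.02 ± 0.24 was called with the block (block adjusted p = 0.000948, against 0.144 without it).

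Sensors of microbes and cell damage rose in 2 of 14 measured inflammasome and C-type lectin receptor genes, against 0.256% of all genes called higher. Nlrp3, the sensor of the inflammasome that matures interleukin 1 beta, went from 6.59, 6.78 and 6.39 to 7.68, 8.06 and 7.99 (1.32 ± 0.22, limma adjusted p = 0.01). Clec4e (Mincle), a receptor for mycobacterial glycolipids, went from 9.90, 9.08 and 8.83 to 10.60, 10.48 and 10.39 (1.22 ± 0.19, adjusted p = 0.00606). Both groups lay apart. Without unstimulated array 3 or 1 h array 2 or 3, Nlrp3 lost its call (largest adjusted p = 0.0794) and the list had 1. Clec4e kept its call in each leave-one-out fit. It was not called with only the 6 arrays compared in the fit (limma adjusted p = 0.243) or only the 9 wild-type arrays (0.0651). Clec5a was called with the block (0.77 ± 0.19).

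Of 18 measured genes of maturation and co-stimulation, 1 rose, Icosl, the ligand of the T cell receptor Icos, from 6.79, 6.77 and 6.60 to 7.53, 7.63 and 7.58 (0.86 ± 0.14, limma adjusted p = 0.0108). The groups lay apart, and the call was lost without unstimulated array 3 or 1 h array 2 or 3 (largest adjusted p = 0.0829). The activation marker Cd69 (1.93 ± 0.43) and the co-stimulator Cd80 (0.65 ± 0.30) were called with the block. Cd40, named with its values known, stood at 6.80, 6.44 and 5.73 and 6.66, 6.16 and 6.12, with overlapping groups. Of 7 MHC class II genes 0 were called and 0 reached an unadjusted p under 0.05 in limma. The largest differences there were −0.23 ± 0.22 for the regulator Ciita and 0.18 ± 0.33 for H2-Oa.

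Interferon-inducible antiviral genes had no call at 1 h. Of the 31 measured, limma called 0 with or without the block and 0 reached an unadjusted p under 0.05. Their median was −0.09 at 1 h, beside a median of 0.01 over all genes, and their array means lay between 6.14 and 6.43 unstimulated and between 6.06 and 6.36 at 1 h. The largest differences were 0.44 ± 0.43 for Ifit3 and −0.40 ± 0.40 for Oasl2. Against the same unstimulated arrays, the list median at 6 h was 1.78, with array means of 7.79 to 9.03. Of 16 genes of interferon production and signalling 0 were called and 2 reached an unadjusted p under 0.05. Ifnb1 (interferon beta) stood at 3.80, 3.80 and 3.36 unstimulated and 4.03, 4.27 and 4.20 at 1 h, near the low-signal reference, a difference of 0.51 ± 0.40 that was not called (limma adjusted p = 0.987). Irf1, a transcription factor of interferon responses, went from 7.65, 7.81 and 8.06 to 8.49, 9.03 and 9.54, with groups apart, and was called with the block (1.18 ± 0.31, block adjusted p = 0.000378).

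Lists chosen as contrasts had 0 calls or 1. Of 17 genes of glycolysis and glucose uptake, 1 rose, the hexose transporter Slc2a6, from 8.13, 8.18 and 8.02 to 8.73, 8.99 and 8.77 (0.72 ± 0.14, limma adjusted p = 0.049), and it was not called in any leave-one-out fit (largest adjusted p = 0.312). Limma called 0 of 14 sterol synthesis genes, 0 of 17 cell cycle genes, 0 of 14 cytosolic ribosomal protein genes and 0 of 20 germline genes, and 0, 0, 0 and 1 of them reached an unadjusted p under 0.05. Insig1 and Dhcr7 had the largest sterol list differences (0.29 ± 0.24 and 0.29 ± 0.17), and Cdk1 and Birc5 those of the cell cycle list (0.35 ± 0.33 and −0.24 ± 0.64).

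Called rises outside the lists covered receptors, small G proteins and regulators of transcription. Gpr84, a receptor for medium-chain fatty acids, went from 5.09, 6.26 and 5.91 to 7.20, 7.98 and 7.87 (1.93 ± 0.32, limma adjusted p = 0.01). Its groups lay apart, and the call was lost without 1 h array 2 or 3. Hcar2, the niacin receptor, rose by 0.85 ± 0.17, the interleukin 10 receptor chain Il10ra by 0.54 ± 0.11 and the poliovirus receptor Pvr (CD155) by 0.88 ± 0.16. Of genes in small G protein signalling, the GTPase Gem rose by 1.73 ± 0.27, the exchange factor Rasgef1b by 1.50 ± 0.25 and the exchange factor Spata13 by 1.07 ± 0.19. Ets2 rose by 1.13 ± 0.17, Prdm1 (Blimp-1) by 1.06 ± 0.18 and Tgif1 by 0.52 ± 0.10, all encoding transcription factors, and the coregulator Pnrc1 by 0.50 ± 0.10. Pde4b, which degrades cAMP, rose by 1.09 ± 0.14, the ubiquitin ligase Trim13 by 1.27 ± 0.21, the membrane adhesion protein Flrt3 by 1.22 ± 0.12, the endosome protein Ehd1 by 0.87 ± 0.18 and the mitochondrial carrier Slc25a25 by 0.74 ± 0.11. Of these genes only Ets2, Pde4b and Flrt3 were called in all 6 leave-one-out fits.

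The 9 falls comprised 7 genes with a standard symbol, a small nucleolar RNA and an unnamed transcript. Rsrp1, which encodes an arginine and serine rich nuclear protein, stood at 9.67, 9.90 and 9.97 unstimulated and at 9.04, 9.0 and 8.96 at 1 h. The 1 h arrays spanned 0.08, and the change was −0.85 ± 0.13 log2 units (limma adjusted p = 0.00453). Ogt, the enzyme that adds O-GlcNAc to nuclear and cytosolic proteins, went from 9.0, 9.27 and 9.45 to 8.56, 8.54 and 8.56 (−0.68 ± 0.10, adjusted p = 0.0046). Its 1 h arrays spanned 0.02 and lay below all unstimulated arrays. Zfc3h1, a partner of the nuclear RNA exosome, went from 8.34, 8.65 and 8.28 to 7.90, 7.69 and 7.54 (−0.71 ± 0.11, adjusted p = 0.0061), with groups apart, and lost its call without 1 h array 3.

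Adamts10, a secreted metalloprotease of the extracellular matrix, went from 6.80, 7.41 and 7.34 to 6.38, 6.65 and 6.36 (−0.72 ± 0.14, limma adjusted p = 0.0365). Pwwp2b, a chromatin protein, went from 7.75, 8.09 and 7.68 to 7.18, 7.03 and 7.16 (−0.71 ± 0.13, adjusted p = 0.0294). In both genes every 1 h array was below every unstimulated array. Mettl17, a factor of mitochondrial ribosomes, went from 7.19, 7.54 and 7.61 to 6.97, 6.67 and 6.72 (−0.66 ± 0.13), and the zinc finger gene Zfp329 from 6.58, 6.63 and 6.70 to 6.16, 6.27 and 5.91 (−0.52 ± 0.09). Their groups lay apart as well. Adamts10, Pwwp2b and Mettl17 were each called in 2 of the 6 leave-one-out fits and Zfp329 in 4, whereas Rsrp1 and Ogt were called in all 6. None of the falls belongs to the lists used.

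**Figure D3:**
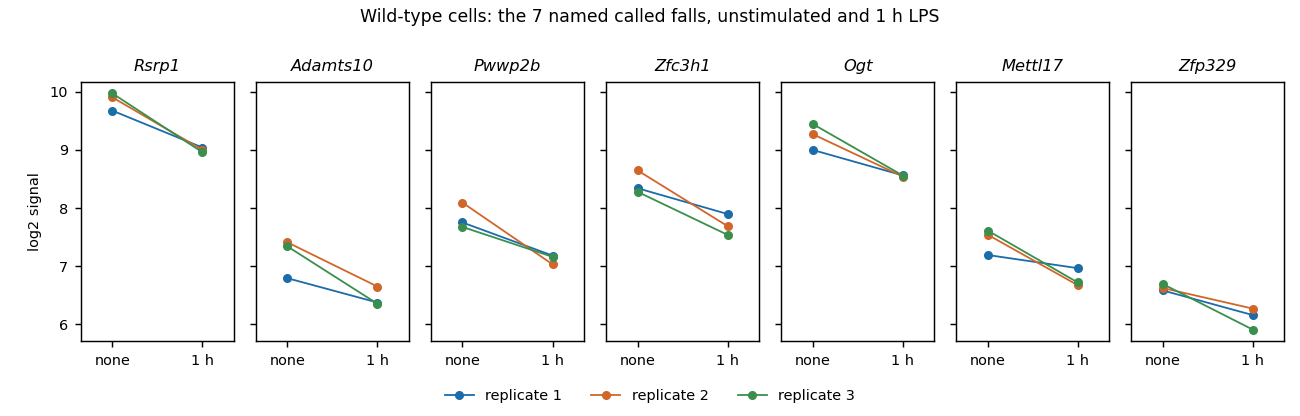
Log2 signal of the 7 called falls with a standard symbol in unstimulated wild-type cells and after 1 h of LPS, lines joining arrays with the same replicate number. All lines fall, by 0.23 to 1.06 log2 units, with Rsrp1 going from 9.67 to 9.97 down to 8.96 to 9.04.

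The replicate block added 73 genes, 46 higher and 27 lower, of which 66 have a standard symbol, and 14 of the 73 had groups that overlapped. Over all genes, the 1 h arrays all lay above the unstimulated ones for 5.8% and all below for 5.3%. Every same-number difference had the sign of the call. Both describe the added genes and give no support, since the same arrays chose them. The share of all genes whose same-number differences had the same sign was not counted. Ereg, a growth factor of the epidermal growth factor family, had the largest added rise (2.01 ± 0.41, block adjusted p = 0.00402 in limma, 0.0534 without the block). Then came Cd69, the soluble pattern receptor Ptx3 (1.63 ± 0.57) and Trem1, which amplifies Toll-like receptor signals, at 6.12, 5.45 and 5.40 unstimulated and 7.53, 7.04 and 7.10 at 1 h (1.57 ± 0.45, block adjusted p = 0.000304). The groups of Trem1 lay apart. Kdm6b (JMJD3), a histone demethylase, had same-number differences of 0.73, 0.71 and 0.75 (block adjusted p = 0.0415). Added falls were led by Gadd45g, Taf1d, a factor of RNA polymerase I (−0.96 ± 0.30, from 9.58, 11.03 and 10.02 to 8.88, 9.57 and 9.29), and Thbd, the anticoagulant receptor thrombomodulin (−0.94 ± 0.25, from 7.47, 6.81 and 6.98 to 6.44, 6.05 and 5.94). All 1 h arrays of both were below their unstimulated arrays. Luc7l (−0.43 ± 0.09), Srek1 (−0.48 ± 0.12), Prpf38b (−0.48 ± 0.12) and the nuclear RNA Malat1 (−0.69 ± 0.17) were among the added falls too, none of them called when the block was fitted to only the 6 arrays compared. These names were picked from the 66 with their values known.

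The size of the response differed between the replicates. Over the 51 rises, the median same-number difference was 1.04 in replicate 1, 1.31 in replicate 2 and 1.56 in replicate 3. Replicate 1 had the smallest difference for 40 of the 51 genes, replicate 2 for 11 and replicate 3 for 0. Over all genes, whose median absolute differences were 0.11, 0.17 and 0.12, replicate 1 had the smallest absolute difference for 39.9%. The 9 falls had medians of −0.44, −0.76 and −0.89, with the smallest in replicate 1 for 6. Largest spreads between replicates were in Il6 (1.60, 2.33 and 3.87) and Cxcl1 (1.75, 3.03 and 3.65), whereas Cxcl2 (4.77, 4.55 and 4.86) and Ptgs2 (1.92, 2.18 and 2.11) were close to even. The unstimulated arrays correlated with each other at 0.989 to 0.992 and the 1 h arrays at 0.993 to 0.996 (Pearson's r across genes, which are not independent replicates).

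**Figure D4:**
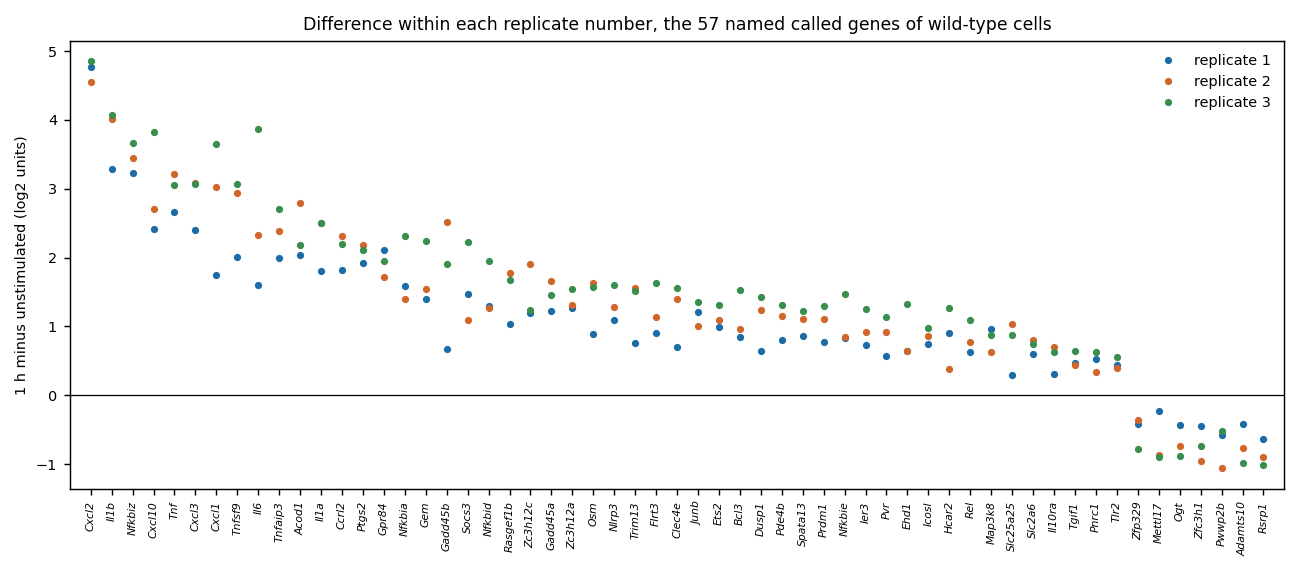
Difference between 1 h of LPS and no stimulation within each replicate number, in log2 units, for the 57 called genes with a standard symbol, ordered by the mean change. Replicate 1 (blue) is the lowest point for most of the rises, and no point crosses 0.

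The same genes were then followed to 6 h. Over all genes, 606 were higher (3.04%) and 573 lower (2.87%) at 6 h than at 1 h in limma, and with the replicate block 1178 (5.91%) and 1326 (6.65%). This comparison shares the 1 h arrays with the one that chose the genes, so it is not independent of that choice. Of the 51 rises, 15 were higher at 6 h than at 1 h, 7 were lower and 29 were not called. Of the 9 falls, 4 were higher at 6 h, 0 were lower and 5 were not called. With the block, 18 of the 51 were higher and 9 lower, and the counts for the falls stayed the same. The added genes were Il1b, Nlrp3 and Spata13 (higher) and Junb and Il10ra (lower).

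Among those that went on rising were the chemokines Cxcl3, with 6 h arrays at 11.11, 12.04 and 11.93 (3.11 ± 0.47 above 1 h, limma adjusted p = 0.000792), and Cxcl10 at 9.67, 10.76 and 11.15 (2.62 ± 0.58, adjusted p = 0.0116). Each 6 h array of both was above each 1 h array. Acod1 reached 12.03, 12.23 and 12.32 (2.41 ± 0.41), Ptgs2 9.80, 10.83 and 11.02 (2.13 ± 0.30) and Il6 7.57, 9.43 and 9.85 (2.19 ± 0.50). Gpr84 (1.85 ± 0.32), Clec4e (1.65 ± 0.19), Slc2a6 (1.45 ± 0.14) and Gem (1.26 ± 0.27) were higher at 6 h as well. Smaller further rises were called for Ehd1, Zc3h12c, Ccrl2, Icosl, Pvr and Tlr2, between 0.31 and 0.98.

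The 7 genes that were lower at 6 h than at 1 h included Nfkbiz and Nfkbid of the NF-kB list, the phosphatase Dusp1 and the RNase Zc3h12a. Osm stood at 6.0, 6.13 and 5.60 at 6 h (−1.63 ± 0.21 against 1 h, limma adjusted p = 0.000185), where its unstimulated arrays had 6.18, 6.16 and 6.18. Nfkbiz stood at 7.54, 7.89 and 8.08 (−1.21 ± 0.23, adjusted p = 0.00376), above its unstimulated arrays, and Nfkbid at 6.80, 6.57 and 6.79 (−1.20 ± 0.22), in the range of its unstimulated arrays. Dusp1 (−0.93 ± 0.19), Flrt3 (−0.65 ± 0.12), Zc3h12a (−0.63 ± 0.11) and Ier3 (−0.46 ± 0.12) were lower too. The differences of Cxcl2 (−0.11 ± 0.30), Tnf (−0.26 ± 0.21), Tnfaip3 (−0.03 ± 0.21) and Nfkbia (−0.32 ± 0.17) between the times were not called with or without the block, and that of Il1b (0.82 ± 0.35) only with it (block adjusted p = 0.0316). Of the falls, Rsrp1 was back at 9.80, 9.74 and 9.78 (0.78 ± 0.13, adjusted p = 0.00147) and Ogt at 9.27, 9.23 and 9.26 (0.70 ± 0.10), with Zfc3h1 (0.67 ± 0.11) and Zfp329 (0.59 ± 0.09) also higher than at 1 h. Pwwp2b stood at 7.24, 6.89 and 6.93 and Adamts10 at 6.45, 6.31 and 6.37, with no called difference from 1 h.

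**Figure D5:**
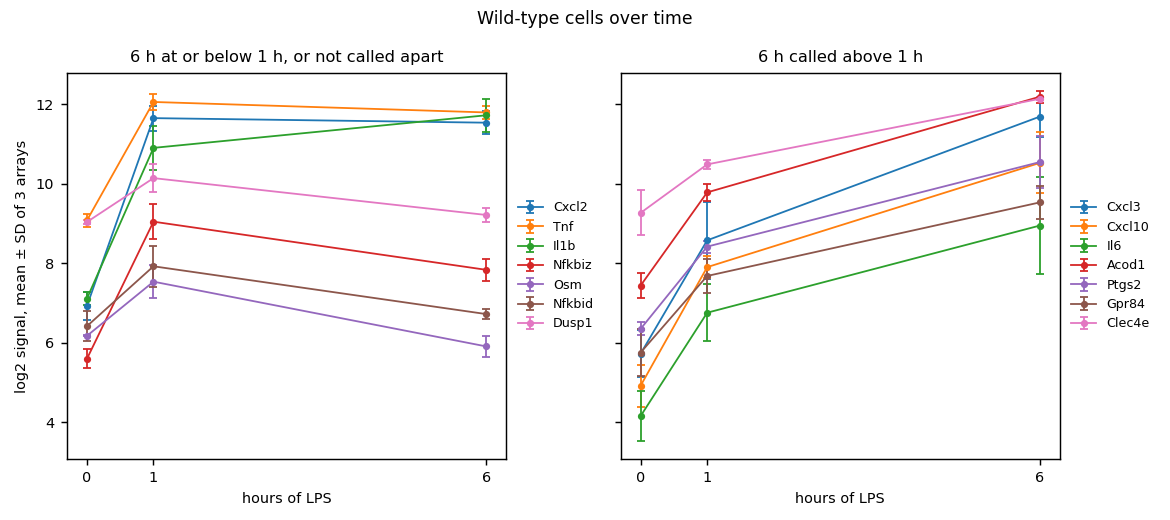
Log2 signal (mean ± SD of 3 arrays) in wild-type cells unstimulated (0 h) and after 1 h and 6 h of LPS for 14 of the called genes. In the left panel Nfkbiz, Osm, Nfkbid and Dusp1 are lower at 6 h than at 1 h and Cxcl2, Tnf and Il1b are not called apart without the replicate block, and in the right panel all 7 genes are higher at 6 h.

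Finally, the 1 h response was set against that of cells labelled knockout for Ubc9, by a test of the difference between the responses. Limma called 0 genes (0.0%) with or without the replicate block, with a smallest adjusted p of 1.0, and 592 genes, 2.97% of all, had an unadjusted p under 0.05. The genotype labels were not checked against expression here. Median rises of the 51 genes were 1.36 in wild-type and 1.59 in knockout cells, and median changes of the 9 falls −0.71 and −0.50. The wild-type arrays chose these genes, so the medians are a description and support no difference between the genotypes. Of the 51, 8 had an unadjusted p under 0.05, each with the larger rise in knockout cells: Cxcl1, Il6, Tnfaip3, Ptgs2, Nfkbid, Prdm1, Ier3 and Il10ra. Of the 9 falls, 3 did, each with a smaller fall or none in knockout cells, Adamts10 (0.42 ± 0.20), a small nucleolar RNA and an unnamed transcript. Ptgs2 had same-number differences of 1.92, 2.18 and 2.11 in wild-type and 2.75, 4.30 and 4.22 in knockout cells, a difference of 1.69 ± 0.42 that did not pass after adjustment. Prdm1 had 0.78, 1.11 and 1.30 and 1.79, 2.10 and 2.17 (0.96 ± 0.25). A p that misses the threshold does not show that the responses were alike.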

How the data were processed

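The deposited table holds log2 signals that the authors made with RMA, per the submitters' processing notes, 1 column per array. The RMA version was not found in the labels. The log base is not stated, and the values, 1.50 to 13.71, are in the range of RMA log2 signals. Quantile normalization in RMA gives all arrays 1 distribution, so a change shared by most genes would not show.

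Of 35556 probe sets, a platform annotation, which can be old, names 1 gene symbol for 21789, several for 1621 and none for 12146. Symbols of 21698 were matched to a GRCm38.p6 gene table and 0 were updated. Genes with several probe sets (999) were represented by the brightest of them on average, and 19938 genes were tested.

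A model with 6 group means was fitted to the 18 arrays with limma 3.58.1 (lmFit and eBayes, R 4.3.3; 12 residual degrees of freedom). The 2-sided p-values were adjusted by Benjamini-Hochberg over all genes, and called at 0.05, with no filter on dim genes. Errors are standard errors of that fit. Contrasts were 1 h minus unstimulated, 6 h minus 1 h, 6 h minus unstimulated and the difference between the genotypes' 1 h responses. On simulated data with 19938 genes for the 1 h comparison, the fit recovered 93 of 100 genes changed by 1 log2 unit and 97 of 100 changed by 2, with 12 false calls. The simulated noise was normal, independent between arrays and held no pairing by replicate number. These counts therefore do not give the recovery in the real data, whose arrays are paired. The number of arrays limits the precision.

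Deviations from the group means of wild-type arrays correlated across genes at 0.15 to 0.54 for the 9 pairs with the same number and at −0.41 to 0.10 for the 18 pairs with different numbers. The numbers therefore pair the arrays, and values with the replicate block within genotype stand beside results that it changes. The main fit and its standard errors leave this pairing out. So do the leave-one-out fits, and calls lost in them were not checked with the block.

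The comparison, its gene lists (33 lists, 543 entries, 499 measured) and the naming rule were chosen with earlier results of these data known. Any gene called with or without the block may be named if its symbol is a standard one. Values on every array are given for the largest changes and for called members of lists, with up to 4 called members per list or the 2 largest differences where none was called. Calls of clones, predicted genes and small RNAs were counted only. Alternatives covered the arrays in the fit, the block, array weights, the variance prior, centring, normalization, dim genes, the probe set rule and each array left out. Promoter windows came from RefSeq.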

Additional observations from a re-analysis of the deposited data

Results flagged for a closer look

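The responses at 6 h and 1 h of wild-type cells differed by a test of the difference itself (limma, adjusted p under 0.05 over all genes) for 26 of the genes named above. Both responses are measured from the same unstimulated arrays, so this is the 6 h minus 1 h comparison given above and no further test, and the genes were chosen on the 1 h arrays. The 6 h response was the larger for 15 of the rises, in log2 units by 3.11 for Cxcl3, 2.62 for Cxcl10, 2.41 for Acod1, 2.19 for Il6, 2.13 for Ptgs2, 1.85 for Gpr84, 1.65 for Clec4e, 1.45 for Slc2a6, 1.26 for Gem, 0.98 for Ehd1, 0.96 for Zc3h12c, 0.85 for Ccrl2, 0.59 for Icosl, 0.57 for Pvr and 0.31 for Tlr2. It was the smaller for 7 rises, by −1.63 for Osm, −1.21 for Nfkbiz, −1.20 for Nfkbid, −0.93 for Dusp1, −0.65 for Flrt3, −0.63 for Zc3h12a and −0.46 for Ier3. For 4 of the falls the 6 h value was closer to the unstimulated level, with differences of 0.78 for Rsrp1, 0.70 for Ogt, 0.67 for Zfc3h1 and 0.59 for Zfp329.

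Of the 13767 probe sets without a single gene symbol, which enter no comparison above, 1 was called higher and 21 lower at 1 h in the limma fit on every probe set. The rise was 1.22 log2 units. The falls ran from −0.82 to −2.48, 18 of the 21 were past 1 log2 unit, and they make up 21 of the 27 calls lower in that fit. What these probe sets measure was not looked up, so the falls are not read as falls of transcripts.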

How the results depend on the processing

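The 1 h comparison called 51 genes higher, 9 lower and 38 at least 2-fold higher. With the replicate block within genotype it called 97 higher and 36 lower, with only the 6 arrays compared 30 and 1, and with only the 9 wild-type arrays 4 lower. Restricting the test to genes with a mean of at least 5 gave 14 lower and testing every probe set on its own 27 lower. Leaving out 1 array gave 25 to 45 genes called higher, 3 to 28 lower and 22 to 38 at least 2-fold higher. No call among the 57 named genes changed direction in any of the 17 alternatives, which adds no support. Several alternatives, the block among them, change the error and not the difference. Leaving out 1 array cannot reverse a gene whose groups lay apart, as those of all called genes did. The 6 h minus 1 h comparison called 606 higher and 573 lower, and 1178 and 1326 with the replicate block, whereas the genotype difference stayed at 0 calls. Why these counts moved was not tested. Signals near the low-signal reference, as for Il6 without LPS, limit how well the size of a change is known.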
